A study of Mus musculus with 12 samples.

Results

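The anti-IgM response described here is that of mouse splenic B cells forced to express wild-type E12. It rests on 6 of the 12 arrays of the series, the 3 whose titles read anti-IgM treated wt and the 3 whose titles read untreated wt, and it covers every probe detected on at least 3 of the 6. All cells came from spleens of 8-week-old C57BL/6 mice in which 1 of the E2A alleles was deleted. The purified B cells were activated with CD40L (200 ng/ml) and IL-4 (5 ng/ml) for 14 h and infected in 2 rounds of 12 h with a retrovirus that carries E12 and GFP, with LPS (200 ng/ml) present during infection. They were kept for another 22 h with CD40L and IL-4. The treated cells then received goat F(ab')2 anti-mouse IgM (2.5 μg/ml) for 3 h, and the untreated cells did not. Infected cells were sorted by GFP. Untreated cells are thus activated, infected and E12-expressing, not resting. The mutant E12 arrays, used at the end only, come from cells handled alike but infected with the mutant form, which the series title calls calmodulin-resistant, in 3 anti-IgM treated and 3 untreated samples. The label wildtype names the retroviral E12, since the cells of both forms are heterozygous for the E2A deletion. The labels do not say whether replicates came from separate mice, so p-values may measure technical spread only.

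Crosslinking of surface IgM by antibody mimics antigen. Kinases recruited to the receptor open calcium and diacylglycerol signals, which feed calcineurin and NFAT, MAP kinases, PI3 kinase and NF-kB, and within hours a lymphocyte turns on immediate early transcription factors, then MYC and the machinery of growth. E12 is a basic helix-loop-helix protein made from Tcf3, the gene also called E2A. It binds E-box DNA, holds B cell identity in place, and is blocked by Id proteins and by calmodulin, the calcium sensor that calcium entry loads.

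The deposited values are normalized bead intensities on a linear scale, in arbitrary units. The detection limit was 12.9 units on each of the 6 arrays, and between 18110 and 18124 probes exceeded it. Changes are differences of log2(intensity + 50), anti-IgM minus untreated, followed by ± the standard error of limma's fit over 3 arrays per group. The offset makes the log2 changes of dim genes smaller than their ratios. A gene is called when its limma p, adjusted over all 18221 detected probes, is under 0.05, and the probe with the highest mean stands for the gene. The number of arrays limits the precision.

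Of the 18221 probes, 34% were called. Across the transcriptome, 1661 of 9407 genes were called higher with anti-IgM (17.7%) and 1857 lower (19.7%), together 37.4%. The median change of all genes was -0.03. The deposited arrays share 1 median, at 6.93 to 6.94 units, which lies under the detection limit of 12.9. What part normalization had in the balance of the directions was not tested. By at least 1 log2 unit, 275 genes rose (2.92%) and 230 fell (2.44%). For 4999 genes (53.1%) the 3 treated arrays did not overlap the 3 untreated arrays, 2321 of them higher (24.7%) and 2678 lower (28.5%). Calls depended on brightness. With the genes split by level into 3 equal groups, 10.2% of the dimmest were called higher and 12.7% lower, 18.6% and 23.1% of the middle group, and 24.2% and 23.4% of the brightest. Of the 3784 genes with several detected probes, 1554 were called, and in 1359 of these all probes shared the sign. Another probe passed in the opposite direction for 16.

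**Figure D1:**
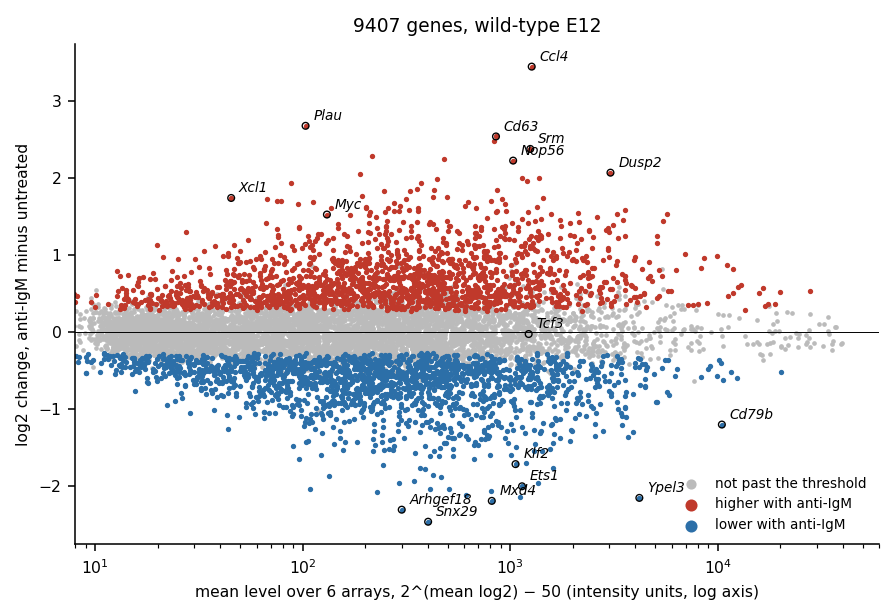
Log2 change (anti-IgM minus untreated, vertical axis) of 9407 genes against their mean level over the 6 wild-type E12 arrays (intensity units, log axis); red points were called higher, blue points lower and grey points neither. Called genes lie on both sides of 0 in similar numbers (1661 and 1857), with Ccl4 at the top (3.44) and Snx29 at the bottom (-2.47).

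Arrays grouped by treatment, and replicate 1 stood apart within each group, more so in the untreated group. Correlations across probes, which are not independent replicates, ranged from 0.993 to 0.997 among anti-IgM arrays, from 0.977 to 0.994 among untreated arrays and from 0.944 to 0.967 between the groups. The median standard deviation of a probe within a group was 0.094 log2 units with anti-IgM and 0.159 untreated. Along the second principal component anti-IgM replicate 1 lay at 10.3, against -1.78 and -2.30 for the other anti-IgM arrays. Untreated replicate 1 lay farther the same way, at 27.9, against -15.9 and -18.2 for the other untreated arrays. It read highest for several genes typical of macrophages, among them Lyz1 (lysozyme), at 446, 239.9 and 216 with anti-IgM, against 1061, 305 and 311 untreated. Gpnmb, a lysosomal glycoprotein, read 273, 278 and 266 with anti-IgM, against 556, 165 and 129.8 untreated. Without untreated replicate 1 the calls numbered 2058 higher and 2362 lower, and without anti-IgM replicate 2 there were 1096 higher. The fits without untreated replicate 1, here and below, keep anti-IgM replicate 1.

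**Figure D2:**
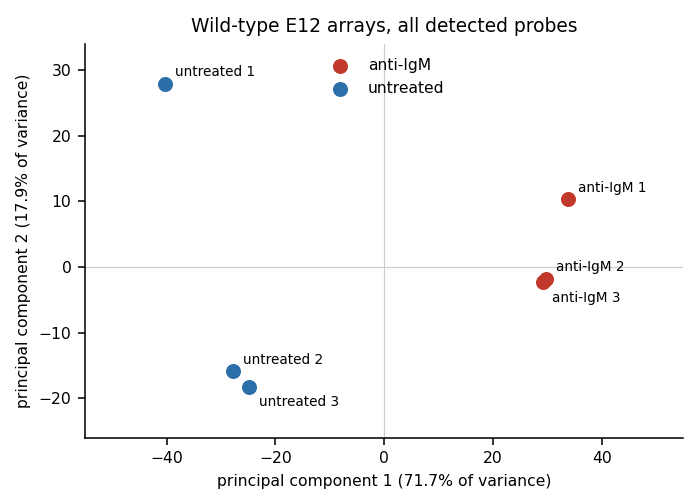
The 6 wild-type E12 arrays on the first 2 principal components of all detected probes (axes in log2 units, with the share of variance). The first component (71.7%) separates the 3 anti-IgM arrays from the 3 untreated arrays. The second (17.9%) sets untreated replicate 1 apart, with anti-IgM replicate 1 displaced the same way within its group.

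The cells carried B cell transcripts, and of the other lineages the erythroid list alone was wholly under the limit. Of the 8 B cell markers with a named probe, 7 were detected on all 6 arrays, and the probe for Pax5 was detected on 0. Their summed level was 18668 to 21391 with anti-IgM, against 25644 to 36564 untreated. Of the 7 tested, 4 were called lower and 0 higher. In bulk RNA fewer cells of a type and less RNA per cell cannot be told apart. Of 11 myeloid markers, 5 were detected on all arrays, with a sum of 445 to 817 with anti-IgM and 807 to 2273 untreated, while Itgam, Fcgr1, Mpo and S100a9 were detected on 0. Cd3e, Cd3g, Cd4 and Cd8a of the 8 T cell markers were on 0, as were Ncr1, Klrd1 and Gzmb of the 6 NK cell markers. The perforin gene Prf1, also an NK marker, read 1137, 1161 and 1494 with anti-IgM, against 3932, 2649.9 and 2985 untreated. Flt3, Itgax and Clec9a of 5 dendritic cell markers and all 3 erythroid markers were on 0. Of 6 stromal and endothelial markers, Pecam1 alone was detected, at 44.7, 43.3 and 49.1 with anti-IgM, against 145, 229.9 and 254 untreated. The sums of T cell markers were 951 to 1118 with anti-IgM and 1055 to 1600 untreated, those of NK cell markers 1172 to 1517 and 2667 to 3969, and those of dendritic cell markers 74.7 to 96.1 and 111 to 166. The sum of plasma cell markers was higher with anti-IgM, at 8283 to 9152, against 7574 to 7798 untreated. Of its 5 tested members, Irf4 alone was called, and it was higher. Xbp1, the other member detected on all 6 arrays, read 5532, 6269 and 5799 with anti-IgM, against 6156, 6758 and 6799.7 untreated. The part of these shifts in the results below was not tested.

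Tcf3 itself did not pass the test. It read 1702, 1063 and 985 with anti-IgM, against 1086, 1166 and 1505 untreated, so the groups overlapped. The difference was -0.03 ± 0.20 (limma adjusted p = 0.926), and the other detected Tcf3 probe differed by -0.09. Where the probes lie is not given, so transcripts of the retrovirus and of the remaining allele are not told apart, and the reading does not check the infection. Ebf1, a partner of E12 in early B cells, read 195, 141 and 160.1 with anti-IgM, against 152, 149.8 and 168 untreated, with a difference of 0.06 (adjusted p = 0.747). Id3, the E protein inhibitor, read 39.1, 52.6 and 77.9 with anti-IgM, against 51.1, 114 and 106 untreated. Its difference of -0.38 ± 0.20 missed the threshold (limma adjusted p = 0.173), passed with the replicate number as a block (adjusted p = 0.0369), and was -0.60 without untreated replicate 1 (adjusted p = 0.00537).

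The steepest rises were those of Ccl4, Plau, Cd63, Trmt61a and Srm. Ccl4, a chemokine that draws T cells and monocytes, read 6159.8, 3621 and 3564 with anti-IgM, against 1166, 175 and 184 untreated. The groups did not overlap, but untreated replicate 1 stood well above the other untreated arrays. Its log2 change of 3.44 ± 0.57 was the largest of all genes tested (limma adjusted p = 0.002), and its other probe rose by 2.99. Plau, the urokinase that activates plasminogen, read 437, 336 and 259 with anti-IgM, against 7.98, 10.1 and 14.0 untreated. It was far above the limit on every treated array and near or under it on every untreated array, with a change of 2.67 ± 0.16 (adjusted p = 2.81e-05). Cd63, a tetraspanin of late endosomes, read 2039, 2146 and 2200.4 with anti-IgM, against 213, 401 and 395 untreated, a rise of 2.54 ± 0.19 (adjusted p = 5.86e-05) that its other 2 probes shared at 1.95 and 1.94. Trmt61a, the catalytic subunit of a tRNA adenosine methyltransferase, read 2111, 2005 and 1991 with anti-IgM, against 348, 331 and 294 untreated. With tight replicates in both groups, it rose by 2.48 ± 0.10 (adjusted p = 2.08e-05). Srm, which makes spermidine, read 3274, 2703 and 2779 with anti-IgM, against 427, 612 and 538 untreated, a rise of 2.37 ± 0.14 (adjusted p = 2.81e-05). The other rises among the 15 largest were those of Rgcc (2.28), Ccl3 (2.24), Nop56 (2.22), Dusp2 (2.07), Rgs1 (2.05), the mitochondrial peptidase Pitrm1 (2.00), the tetrahydrobiopterin enzyme Gch1 (1.99), the folate carrier Slc19a1 (1.98), Nop58 (1.96) and Rrp9 (1.93).

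The steepest falls were those of Snx29, Arhgef18, Mxd4, Ypel3 and Amigo2. Snx29, a sorting nexin, read 111, 171 and 150.0 with anti-IgM, against 993, 1109 and 945 untreated, the largest fall of all genes tested at -2.47 ± 0.13 (limma adjusted p = 2.45e-05). Arhgef18, a guanine nucleotide exchange factor, read 118, 96.5 and 107 with anti-IgM, against 839, 677 and 683 untreated, a fall of -2.31 ± 0.11 (adjusted p = 2.15e-05). Every treated array was several-fold below every untreated array for both genes. Ypel3, a growth-suppressing gene, read 2137, 1906 and 1839 with anti-IgM, against 11072, 8076 and 7912 untreated. The groups stood far apart at a high level, with a change of -2.16 ± 0.14 (adjusted p = 3.79e-05), and its other probe fell by 0.66. Rflnb, an actin-binding refilin, came close to the limit at 26.7, 27.3 and 30.7 with anti-IgM, against 198, 299.8 and 334 untreated (-2.04 ± 0.16, adjusted p = 5.95e-05). Exchange factors for small GTPases also included Ralgps2 (-2.05) for Ral and Fgd2 (-1.96) for Cdc42, and 1 of the other 4 Ralgps2 probes missed the threshold (-0.28). The other falls among the 15 largest were those of Mxd4 (-2.20), the adhesion gene Amigo2 (-2.14), Gbp2 (-2.12), Abi3 (-2.09), E2f2 (-2.07), Rnase6 (-2.04), Ets1 (-2.01), Zcchc18 (-1.97) and Gbp3 (-1.93).

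**Figure D3:**
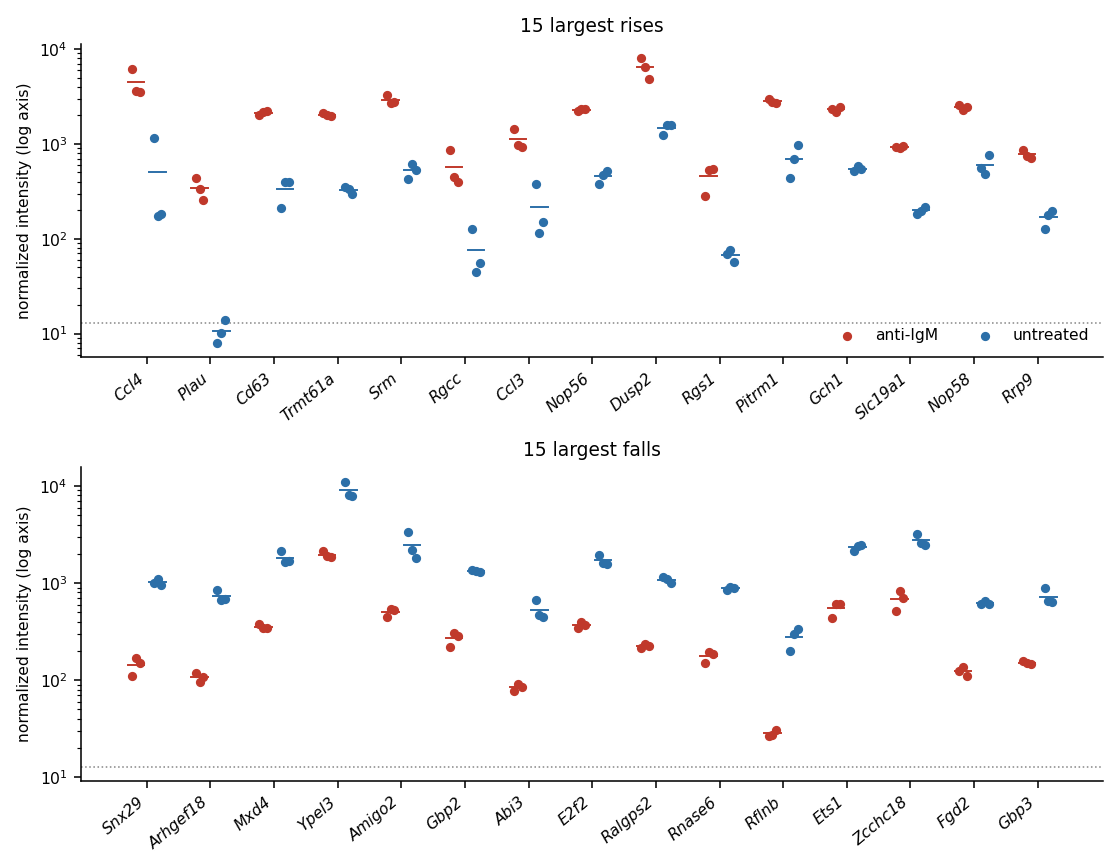
Normalized intensity (log axis) of the 15 largest rises (top) and 15 largest falls (bottom) on each of 3 anti-IgM arrays (red) and 3 untreated arrays (blue); short lines are group means and the dotted line is the detection limit of 12.9. The 2 colours do not overlap for any of these genes, which the choice of genes required, and Plau alone has untreated arrays under the limit.

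Some genes crossed the detection limit. Of the genes tested, 80 were detected on all treated and 0 untreated arrays, 57 of them called higher. Another 104 were detected on all untreated and 0 treated arrays, 74 of them called lower. Over all genes 17.7% were called higher and 19.7% lower. These genes passed the detection filter only through the group where they are high. Their direction was thus set by the filter, and the counts are no evidence of a response. Their folds are lower bounds against the limit, on the scale of intensity + 50. Xcl1, a chemokine for dendritic cells, read 125, 119.7 and 127 with anti-IgM, against 1.74, 2.12 and 2.55 untreated, at least 2.76-fold higher (limma adjusted p = 2.15e-05). Sult2b1, a steroid sulfotransferase, read 82.5, 68.0 and 63.5 with anti-IgM, against -7.06, 3.77 and 2.61 untreated, at least 1.92-fold higher (adjusted p = 0.000127). The other high bounds were those of Ankrd13b (2.06), Rbpms2 (1.65) and the EGR family member Egr4 (1.64). In the other direction the death-associated kinase gene Dapk2 read 8.42, 1.49 and 10.2 with anti-IgM, against 74.4, 52.7 and 34.7 untreated, at least 1.63-fold lower (adjusted p = 0.00227). Fcgrt, the receptor that recycles IgG, was at least 1.61-fold lower, Klhl14 1.60-fold, Scml4 1.57-fold and Dpysl4 1.56-fold. The call for Dpysl4 was lost when its probes were averaged (-0.24, adjusted p = 0.0775), the other probe being at 0.22.

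The genes were next read by role, from the receptor inwards. Beside each list stand its median change and its calls, to be set against the median of -0.03 and the 17.7% higher and 19.7% lower over all genes. The 30 lists hold 791 genes, 736 with a named probe and 662 tested. Of those tested, 5 were detected on treated arrays only and 1 on untreated arrays only, so the detection filter set their direction. Members named beyond those the naming rule picked were chosen after their values were seen.

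Components of the antigen receptor and its proximal signalling were lower in 14 of 28 and higher in 2, with a median of -0.40. Cd79b, a signalling chain of the receptor, read 7320.3, 7182 and 6182 with anti-IgM, against 13878, 17202 and 16921 untreated. Treated arrays held less than any untreated array, a fall of -1.21 ± 0.12 (limma adjusted p = 0.000174), and the other probe fell by 1.35. The scaffold Bank1 read 61.9, 111 and 108 with anti-IgM, against 289.9, 356 and 359.8 untreated (-1.44 ± 0.15, adjusted p = 0.000237). Cd22, an inhibitory coreceptor, read 1058, 1943 and 1846 with anti-IgM, against 2944, 3608 and 3699.8 untreated (-1.10 ± 0.21, adjusted p = 0.00427), while its other 2 probes, at -0.26 and -0.78, missed the threshold. Prkcb, the protein kinase C isoform that carries the signal to NF-kB, fell by 1.05, and the kinase gene Syk and the phospholipase gene Plcg2 fell by 0.83 and 0.67. The 2 that rose were the coreceptor gene Cd72 (1.00) and the PI3 kinase adaptor gene Pik3ap1 (0.93), and the higher count was 1 without anti-IgM replicate 1 or 2. The summed B cell marker level, given above, was also lower with anti-IgM, but that sum includes Cd79b and Cd22 themselves. Its other members went both ways. Ms4a1 read 216, 244 and 263 with anti-IgM, against 320, 487 and 425 untreated. Fcer2a read 1724, 2489 and 2978 with anti-IgM, against 3028, 6583 and 6513 untreated. Blk read higher, at 6997, 7739 and 7092 with anti-IgM, against 4339, 6597 and 6446 untreated, but was not called. Of the 7 markers tested, 4 were called lower and 0 higher.

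Calcium, calmodulin, calcineurin and NFAT genes were called lower in 9 of 26 and higher in 4, with a median of -0.08. Both catalytic subunits of calcineurin picked by the naming rule fell. Ppp3cc read 198, 215 and 223 with anti-IgM, against 932, 684 and 672 untreated (-1.62 ± 0.13, adjusted p = 7.62e-05), and Ppp3ca read 519.8, 592 and 578 with anti-IgM, against 1193, 1649 and 1211 untreated (-1.18 ± 0.14, adjusted p = 0.000328). Itpr3, a calcium release channel, read 72.3, 96.3 and 99.5 with anti-IgM, against 226, 284 and 284 untreated (-1.17 ± 0.12). In contrast Orai1, the pore of store-operated calcium entry, read 1027, 805 and 676 with anti-IgM, against 491, 339 and 294 untreated, a rise of 1.07 ± 0.19 (adjusted p = 0.00298), and the calcineurin inhibitor gene Rcan1 rose by 0.71. Of the calmodulin genes, Calm3 read 1515, 1348 and 1326 with anti-IgM, against 2274, 1847 and 1834 untreated, a fall of -0.49 ± 0.12 (adjusted p = 0.0116) that missed the threshold without anti-IgM replicate 2 (adjusted p = 0.0542) or 3 (0.0559). Calm2 read 612, 574 and 589.9 with anti-IgM, against 818, 518 and 632 untreated, with overlapping groups and -0.12 ± 0.15 (adjusted p = 0.588). Its other probes disagreed, at -0.84 (adjusted p = 0.00114) and -0.13. The list had 5 lower calls without anti-IgM replicate 2 or 3, and a median of -0.14 without untreated replicate 2.

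Immediate early and early response factors, the transcription factors that antigen receptor signals switch on without new protein synthesis, were called higher in 13 of 19 and lower in 0, with a median of 0.61. Fosl2, an AP-1 member, read 219.8, 142 and 138 with anti-IgM, against 11.8, 15.6 and 15.9 untreated, near the limit untreated and clearly above it on every treated array (1.73 ± 0.14, limma adjusted p = 8.27e-05). Egr2, which restrains lymphocyte activation, read 4337, 3523 and 3642 with anti-IgM, against 1451, 1565 and 1467 untreated (1.33 ± 0.11, adjusted p = 7.73e-05). Egr3 read 3975, 2599 and 2651 with anti-IgM, against 2026, 1252 and 1133 untreated (1.06 ± 0.23, adjusted p = 0.00747). Egr1 was already bright, at 10456, 7611 and 7225 with anti-IgM, against 3898, 5353 and 5104 untreated (0.80 ± 0.17, adjusted p = 0.00647), and missed the threshold in the 12-array fit (adjusted p = 0.163). The stress-induced Atf3 (1.23) and the circadian repressor Bhlhe40 (1.16) also rose. The AP-1 genes Fos and Jun did not pass. Fos read 268, 296 and 251 with anti-IgM, against 320.5, 149 and 153 untreated, with untreated replicate 1 above every treated array (0.38 ± 0.22, adjusted p = 0.209), and was 0.68 without that array (adjusted p = 0.00029). Jun was dim at 15.7, 20.3 and 21.9 with anti-IgM, against 57.0, 30.3 and 31.8 untreated (-0.36 ± 0.13, adjusted p = 0.0566). The probe for Nr4a1, an orphan nuclear receptor induced by antigen receptors, was detected on 0 arrays. Of the 19 genes, 3 were detected on treated arrays only, so the detection filter set their direction. Restricting the test to probes detected on all 6 arrays left 8 higher calls in the list.

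Signal feedback inhibitors moved both ways, 8 of 17 higher and 5 lower, with a median of 0.23. Dusp2, a nuclear phosphatase for MAP kinases, read 8035, 6409 and 4799 with anti-IgM, against 1236, 1577 and 1598 untreated (2.07 ± 0.18, adjusted p = 0.000107). Dusp4, from the same family, read 2602, 2816 and 2683 with anti-IgM, against 956, 866 and 893 untreated (1.53 ± 0.09, adjusted p = 3.36e-05), and its other 3 probes rose by 0.88 to 1.40. Rgs1, which quenches G-protein signals of chemokine receptors, read 285, 534 and 544 with anti-IgM, against 69.0, 76.9 and 57.6 untreated (2.05 ± 0.21, adjusted p = 0.000172). Socs3, the cytokine signal suppressor, went the other way at 83.3, 62.1 and 61.0 with anti-IgM, against 321, 175 and 163 untreated (-1.14 ± 0.20, adjusted p = 0.0027). The counts were 4 to 10 higher and 2 to 5 lower across fits that left out 1 array. The higher count was 4 without anti-IgM replicate 2, 5 without anti-IgM replicate 1 or 3 or untreated replicate 2. The lower count was 2 without any of the anti-IgM replicates and 3 without untreated replicate 2. The median was 0.06 without untreated replicate 3.

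NF-kB subunits, inhibitors and adaptors were called at close to the rate of all genes, with 3 of 17 higher, 4 lower and a median of -0.07. Rel, the subunit that drives B cell growth, read 479, 485 and 439 with anti-IgM, against 246, 207 and 203 untreated (0.95 ± 0.10, adjusted p = 0.000252). Traf1, a target and adaptor of the pathway, read 1169, 1288 and 1153 with anti-IgM, against 518, 632 and 700.0 untreated (0.92 ± 0.12), and the inhibitor gene Nfkbie rose by 0.81. Birc2, a ubiquitin ligase that holds the noncanonical branch down, read 779.9, 687 and 743 with anti-IgM, against 1835, 1439 and 1235 untreated (-0.97 ± 0.14, adjusted p = 0.00115), with 1 of its other 3 probes not called (-0.25), and the kinase gene Ikbke fell by 0.88. Without untreated replicate 1 there were 6 higher calls, and the median was 0.02 without untreated replicate 2.

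Among secreted factors 9 of 19 were higher and 3 lower, with a median of 0.28. Beside Ccl4, Plau and Xcl1, the chemokine gene Ccl3 read 1437, 984 and 932 with anti-IgM, against 378, 114 and 152 untreated (2.24 ± 0.32, adjusted p = 0.000926), again with untreated replicate 1 the highest of its group. Csf1, the macrophage growth factor, read 276, 202 and 188 with anti-IgM, against 31.4, 24.5 and 8.26 untreated, with 1 of the untreated arrays under the limit (1.93 ± 0.16, adjusted p = 7.94e-05). Il10, the anti-inflammatory cytokine, rose by 1.37. The 3 that fell were the lymphotoxin gene Ltb (-1.53), Il12a (-1.19) and Ebi3 (-0.69), and the last 2 encode subunits of interleukin 12 family cytokines. The call for Ccl4 held under every alternative. Among probes detected on all 6 arrays 5 of the list were higher, and its median was 0.45 without anti-IgM replicate 1.

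Activation and costimulatory surface molecules were higher in 9 of 25 and lower in 4, with a median of 0.16. After Cd63, the transferrin receptor gene Tfrc, which brings in iron, read 3312, 2458 and 2874 with anti-IgM, against 1278, 1095 and 883 untreated (1.37 ± 0.15, adjusted p = 0.000293). Cd44, a hyaluronan receptor, read 1734, 2623 and 2876 with anti-IgM, against 942, 1263 and 1321 untreated (0.99 ± 0.20), but 4 of its other 6 probes missed the threshold. Cd40, the receptor for the CD40L in the medium, read 445, 651 and 599.8 with anti-IgM, against 1235, 1428 and 1415 untreated (-1.21 ± 0.14, adjusted p = 0.000348). Of its other 3 probes, 2 fell, by 0.69 and 0.65, and 1 was at -0.11 (adjusted p = 0.499). The early activation marker Cd69 read 2249.5, 1662 and 1707 with anti-IgM, against 1943, 1284 and 1180.0 untreated. Its groups overlapped and the difference of 0.36 ± 0.19 missed the threshold (limma adjusted p = 0.179), but passed with the replicate number as a block (adjusted p = 0.0299), and was 0.57 without untreated replicate 1 (adjusted p = 0.00526). Cd83, another activation marker, read 6467, 5457 and 5646 with anti-IgM, against 6418, 6619 and 6139 untreated (-0.13, adjusted p = 0.375). Without anti-IgM replicate 2 the list had 2 lower calls. Its median was 0.02 without untreated replicate 1, with 11 higher and 5 lower.

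Homing receptors and adhesion genes were lower in 8 of 17 and higher in 2, with a median of -0.31. Klf2, the factor that keeps lymphocytes in circulation, read 617, 524 and 548 with anti-IgM, against 1877, 1988 and 2037 untreated, with a wide gap between tight groups (-1.72 ± 0.10, adjusted p = 2.81e-05). The chemokine receptor gene Ccr6 read 598, 1058 and 1133 with anti-IgM, against 2585, 2578 and 2901 untreated (-1.53 ± 0.21, adjusted p = 0.00072). Cd55, a complement regulator, fell by 1.29, and the sphingosine phosphate receptor gene S1pr4 fell by 0.98. The 2 that rose, Ccr7 (0.43) and Gpr183 (0.44), encode receptors that steer B cells towards the T cell zone and the follicle edge. The higher count was 0 without anti-IgM replicate 2 or 3, and 1 without anti-IgM replicate 1 or untreated replicate 3.

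B lineage and differentiation factors were lower in 10 of 26 and higher in 2, with a median of -0.28. Irf4, needed for plasma cells and for class switching, read 3533, 2838 and 2459.6 with anti-IgM, against 1571, 929.9 and 745 untreated (1.45 ± 0.24, adjusted p = 0.00212), and untreated replicate 1 was the highest of its group. Bcl6, the germinal centre repressor, read 423, 493 and 483 with anti-IgM, against 1295, 1278 and 1201 untreated, a fall of -1.34 ± 0.10 (adjusted p = 5.38e-05). Ets1, which restrains plasma cell formation, read 435, 608 and 604 with anti-IgM, against 2149, 2391 and 2481 untreated, a fall of -2.01 ± 0.14 (adjusted p = 4.17e-05), whereas its other 2 probes differed by -0.46 and -0.23 and missed the threshold. Pou2f2, the OCT2 gene, read 335, 291 and 299 with anti-IgM, against 878, 982 and 788 untreated (-1.38 ± 0.11, adjusted p = 7.18e-05). Prdm1, the plasma cell master regulator, stayed near the limit at 14.7, 10.9 and 5.51 with anti-IgM, against 42.0, 16.7 and 20.0 untreated (-0.32 ± 0.14, adjusted p = 0.0994). The second factor that rose was Runx1 (0.47), and the higher count was 1 without anti-IgM replicate 1.

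In the MYC, MAX and MXD network, whose members compete for MAX and thereby for E-boxes, 2 of 11 were higher and 2 lower, with a median of 0.13. Myc read 275, 239.9 and 256 with anti-IgM, against 29.9, 69.5 and 77.2 untreated. Each treated array was at least 3 times the brightest untreated array, and the change was 1.52 ± 0.17 (limma adjusted p = 0.000265). Mxd4, which pairs with MAX to repress, read 374, 347 and 341 with anti-IgM, against 2117, 1633 and 1693 untreated (-2.20 ± 0.12, adjusted p = 2.45e-05), and its other 2 probes fell by 1.29 and 1.00. The other call in each direction was that of Zbtb17 (0.49) and Mlxip (-0.39). The call for Zbtb17 was lost without any of the 3 anti-IgM replicates or without untreated replicate 2 or 3, and that for Mlxip without anti-IgM replicate 2 or 3 (adjusted p = 0.101 and 0.108) and in the 12-array fit (0.177). The list had 3 lower calls without untreated replicate 1.

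Ribosome assembly factors rose nearly as a block. Of 43 tested, 40 were higher and 0 lower, 30 of them by at least 1 log2 unit, and the median was 1.26. The count was 39 to 41 in the fits that left out 1 array. Nop56, a core protein of the snoRNPs that guide rRNA methylation, read 2223, 2319 and 2328 with anti-IgM, against 380.1, 470.2 and 513 untreated (2.22 ± 0.12, adjusted p = 2.45e-05). Its partner Nop58 read 2595, 2274 and 2440.3 with anti-IgM, against 554, 478 and 757 untreated (1.96 ± 0.15, adjusted p = 6.10e-05). Rrp9, of the U3 snoRNP that helps cleave the rRNA precursor, read 866, 749 and 716 with anti-IgM, against 128, 179.9 and 197 untreated (1.93 ± 0.14, adjusted p = 5.07e-05). Ebna1bp2, a large-subunit assembly factor, read 1626, 1711 and 1712 with anti-IgM, against 310.5, 521 and 495 untreated (1.84 ± 0.17), while its other probe rose by 0.41. On the probes printed, the treated arrays agreed closely and the groups were far apart. The 3 members not called were Imp3 (0.28), Nolc1 (0.09) and Ddx52 (-0.47).

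MYC with MAX prefers the E-box CACGTG, and E12 with its partners prefers forms such as CAGCTG and CAGGTG, so the promoters of the responding genes were searched for these letters. Promoters are RefSeq's on GRCm38.p6, from 250 bases before to 50 after the start of transcription, for genes with 1 entry, both strands. CACGTG was found in 16.32% of promoters of genes called higher (181 of 1109) and in 7.33% of those called lower (84 of 1146), beside 10.55% of all genes tested (648 of 6145) and 7.12% of all promoters in the table. It was in 10 of the 37 ribosome assembly factor promoters (27.03%). CAGCTG was in 12.44% of those higher, 16.40% of those lower and 13.86% of all tested, and CAGGTG in 15.06%, 17.10% and 16.62%. Of the 37 assembly factor promoters, 7 held CAGCTG (18.92%) and 1 held CAGGTG (2.7%). Overlapping matches of different motifs were each counted. A match is a description of letters, not a binding site. Below are the promoters that hold CACGTG of the 3 assembly factors with the largest rises among those that hold it, and of Trmt61a and Mxd4, printed to show where the motif, in capitals, lies. Its leading base is at position 35 in Grwd1 (chr7:45830740-45831039, minus strand), -60 in Nop2 (chr6:125131633-125131932, plus), 16 in Utp4 (chr8:106893390-106893689, plus), 26 in Trmt61a (chr12:111677855-111678154, plus) and -219 in Mxd4 (chr5:34187661-34187960, minus), counted from the start of transcription.
Grwd1: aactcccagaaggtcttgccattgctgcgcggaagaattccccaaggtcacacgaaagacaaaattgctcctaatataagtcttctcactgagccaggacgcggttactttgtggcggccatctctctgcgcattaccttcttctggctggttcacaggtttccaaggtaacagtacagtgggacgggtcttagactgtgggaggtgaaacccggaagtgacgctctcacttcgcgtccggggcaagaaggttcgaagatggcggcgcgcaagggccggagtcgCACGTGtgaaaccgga
Nop2: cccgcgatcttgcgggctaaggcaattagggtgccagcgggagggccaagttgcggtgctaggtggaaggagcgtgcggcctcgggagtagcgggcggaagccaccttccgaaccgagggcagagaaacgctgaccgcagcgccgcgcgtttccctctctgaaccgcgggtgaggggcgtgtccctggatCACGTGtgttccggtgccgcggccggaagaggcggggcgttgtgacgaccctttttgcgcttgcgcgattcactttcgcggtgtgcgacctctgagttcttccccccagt
Utp4: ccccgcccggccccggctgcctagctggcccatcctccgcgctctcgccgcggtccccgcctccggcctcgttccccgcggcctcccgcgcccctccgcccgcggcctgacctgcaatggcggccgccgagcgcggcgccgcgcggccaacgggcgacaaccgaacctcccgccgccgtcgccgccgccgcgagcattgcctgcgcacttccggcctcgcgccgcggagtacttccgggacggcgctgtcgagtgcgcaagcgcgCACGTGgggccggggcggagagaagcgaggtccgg
Trmt61a: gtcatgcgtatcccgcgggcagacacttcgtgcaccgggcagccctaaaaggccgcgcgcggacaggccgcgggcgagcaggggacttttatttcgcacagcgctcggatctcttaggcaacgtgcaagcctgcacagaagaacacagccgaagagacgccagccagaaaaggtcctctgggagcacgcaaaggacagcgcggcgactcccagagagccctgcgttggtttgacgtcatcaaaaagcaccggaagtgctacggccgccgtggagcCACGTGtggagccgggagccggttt
Mxd4: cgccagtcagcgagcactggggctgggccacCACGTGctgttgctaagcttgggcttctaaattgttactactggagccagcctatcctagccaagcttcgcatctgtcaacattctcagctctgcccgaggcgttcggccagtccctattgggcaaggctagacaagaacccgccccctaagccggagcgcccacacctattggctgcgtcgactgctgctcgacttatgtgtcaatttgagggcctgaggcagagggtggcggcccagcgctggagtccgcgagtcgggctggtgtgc
Grwd1, Nop2 and Utp4, all 3 of them nucleolar, rose by 1.84, 1.83 and 1.57, Trmt61a rose by 2.48, and Mxd4 fell by 2.20. The motif is downstream of the start in 3 of the 4 risers and far upstream in Mxd4.

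Other genes of protein synthesis were called higher more often than lower in each of 5 lists. RNA polymerase I and III genes were higher in 10 of 25 and lower in 1, with a median of 0.22. Polr1b, the second largest subunit of polymerase I, read 732, 480.5 and 493 with anti-IgM, against 177, 119.8 and 146 untreated (1.63 ± 0.17, adjusted p = 0.000202), Polr3e rose by 1.26 and Polr1a by 1.10, while Maf1, the repressor of polymerase III, fell by 0.69. Aminoacyl-tRNA synthetases, which charge tRNAs, were higher in 11 of 18 with a median of 0.52. Eprs read 707, 606 and 619 with anti-IgM, against 269.7, 265 and 325 untreated (1.05 ± 0.11, adjusted p = 0.000226), and the 1 that fell was Vars (-0.70). Both the polymerase and the synthetase list had 2 lower calls without untreated replicate 1. Of the tRNA modification enzymes 14 of 32 were higher and 0 lower, with a median of 0.34, so that Trmt61a stood far above its list. Qtrt1, which places queuine in tRNA, read 749.8, 673 and 752 with anti-IgM, against 219, 277 and 275 untreated (1.34 ± 0.11, adjusted p = 8.27e-05), and Wdr4, of the guanosine methyltransferase, rose by 1.09, with 1 of its other 2 probes just short of the threshold (0.33, adjusted p = 0.0504). Translation initiation factors were higher in 15 of 29 and lower in 2, with a median of 0.35. The mRNA helicase gene Eif4a1 read 10559, 9434 and 9288 with anti-IgM, against 2808, 3738 and 3604 untreated (1.52 ± 0.13, adjusted p = 8.46e-05). Eif2b3, of the exchange factor that recycles EIF2, rose by 1.42, and Eif6, which keeps ribosomal subunits apart, by 1.31. Mitochondrial ribosomal proteins were higher in 26 of 72 and lower in 2, with a median of 0.18, led by Mrps2 (1.06) and Mrps18b (1.06). That list had 17 higher calls without any of the anti-IgM replicates, and 32 higher and 9 lower without untreated replicate 1.

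Cytosolic and mitochondrial chaperones were higher in 18 of 25 and lower in 0, with a median of 0.60. Cct6a, a subunit of the chaperonin that folds actin and tubulin, read 6008, 5465 and 5433 with anti-IgM, against 1478, 2269.7 and 2081 untreated (1.53 ± 0.15, adjusted p = 0.000172). The mitochondrial HSP70 gene Hspa9 read 9715, 9009.7 and 8383 with anti-IgM, against 3129, 3632 and 3141 untreated (1.44 ± 0.11, adjusted p = 5.55e-05), and the chaperonin gene Hspd1 rose by 1.33. Mitochondrial import genes were higher in 7 of 14 and lower in 0, with a median of 0.31. Timm10, a chaperone of the intermembrane space, read 644, 574 and 574 with anti-IgM, against 197, 143 and 164 untreated (1.58 ± 0.12, adjusted p = 5.38e-05). Tomm40, the outer membrane channel, read 271, 201 and 190.3 with anti-IgM, against 32.7, 82.3 and 75.9 untreated (1.27 ± 0.19), but its other probe was at -0.02 (adjusted p = 0.923).

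One-carbon and nucleotide synthesis genes were higher in 18 of 24 and lower in 2, with a median of 0.86. Uck2, the uridine-cytidine kinase of salvage, read 2474, 2887 and 2671 with anti-IgM, against 664, 872 and 777 untreated (1.74 ± 0.12, adjusted p = 4.53e-05). Shmt1, which loads folate with carbon from serine, read 449, 367 and 364 with anti-IgM, against 88.2, 93.8 and 98.1 untreated (1.62 ± 0.11, adjusted p = 3.79e-05). Gart of purine synthesis rose by 1.32 and Ctps, which makes CTP, by 1.24. The 2 that fell were Rrm2 (-0.67), a ribonucleotide reductase subunit, and Prps2 (-0.37). In the polyamine list only Srm was called among 5, with a list median of 0.11, and the probe for Odc1, which supplies its substrate, did not pass the detection filter. That list had 2 higher and 1 lower without untreated replicate 1, and 2 were higher with an offset of 100, with array weights or with a gene's probes averaged. Its median was 0.06 without untreated replicate 3 and 0.17 without anti-IgM replicate 1. Glycolysis and lactate transport genes were higher in 7 of 12 and lower in 1, with a median of 0.52. Ldha, which makes lactate, read 7339.9, 8153 and 7289 with anti-IgM, against 3229, 3889.7 and 3109 untreated (1.15 ± 0.12, adjusted p = 0.000172), and the glucose transporter gene Slc2a1 read 759, 599 and 644 with anti-IgM, against 339, 278 and 311 untreated (0.99 ± 0.12). The muscle-type phosphofructokinase gene Pfkm fell by 0.79, and of its other 2 probes 1 fell by 0.64 and the other was at 0.01. Amino acid transport and ATF4 response genes were higher in 8 of 14 and lower in 2, with a median of 0.57, led by the stress factor gene Ddit3 (1.06) and the glutathione-degrading Chac1 (0.94). Of the cholesterol synthesis genes 3 of 16 were higher and 0 lower, with a median of 0.23. The share higher (18.75%) was close to that of all genes (17.7%), while 0 lower stands beside 19.7% of all genes. Cyp51 read 2275, 2132 and 2132 with anti-IgM, against 471, 1236 and 1249 untreated (1.22 ± 0.30, adjusted p = 0.0139), with untreated replicate 1 below the other untreated arrays, and missed the threshold without anti-IgM replicate 1 (adjusted p = 0.0588). Without untreated replicate 1 the cholesterol list had 4 higher and 3 lower calls and a median of 0.12.

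**Figure D4:**
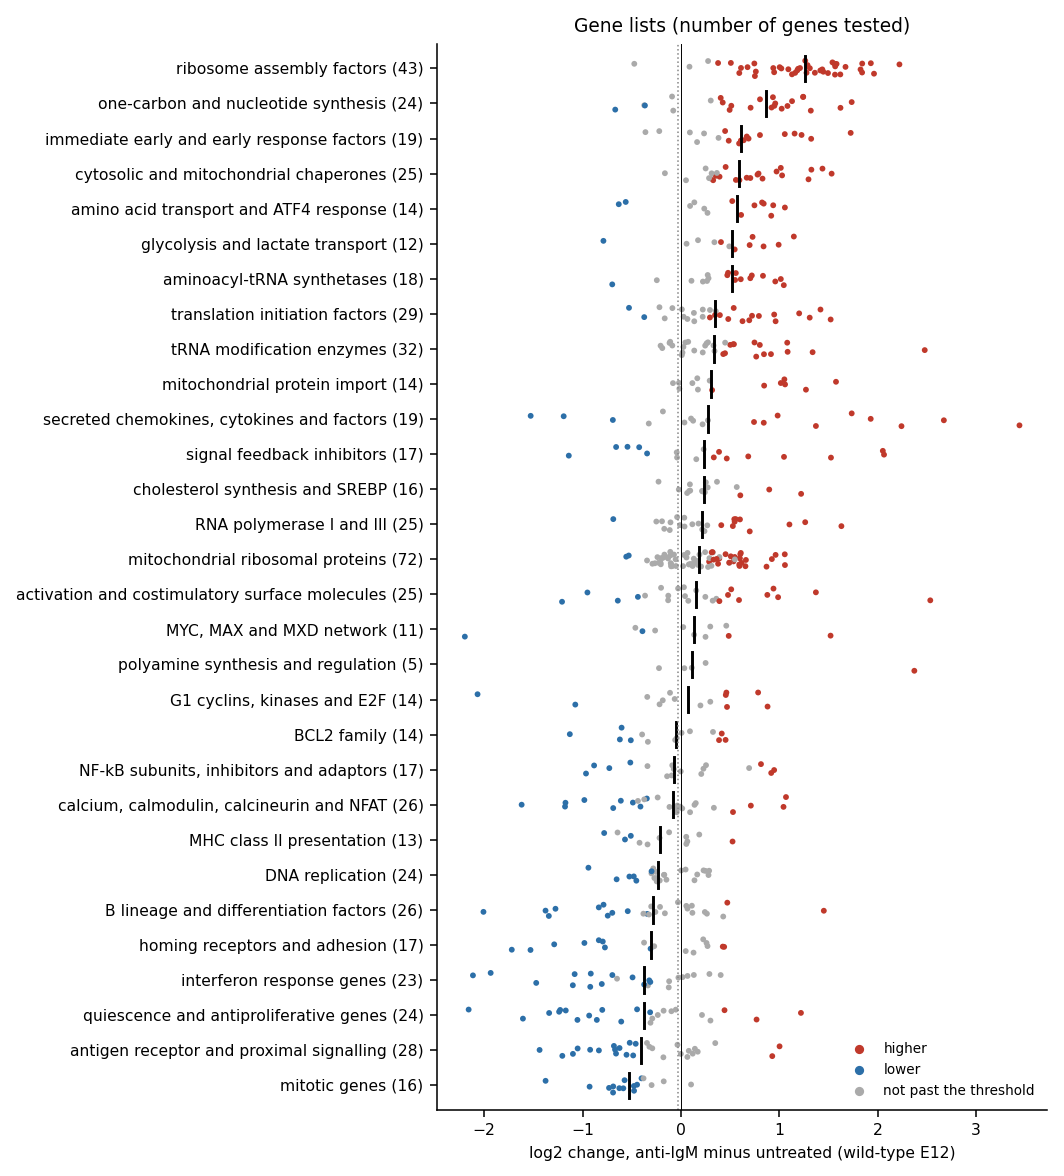
Log2 change (anti-IgM minus untreated, horizontal axis) of each tested gene in 30 lists, ordered by median (black bars), with the number of genes tested in brackets; red genes were called higher, blue lower, grey neither, and the dotted line is the median of all genes (-0.03). Ribosome assembly factors lie farthest to the right (median 1.26) and mitotic genes farthest to the left (-0.53).

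Quiescence and antiproliferative genes were lower in 13 of 24 and higher in 3, with a median of -0.38. Beside Ypel3, the glucose uptake inhibitor Txnip read 435, 605 and 645 with anti-IgM, against 1889, 1714 and 1772 untreated (-1.61 ± 0.14, adjusted p = 9.89e-05). Pdcd4, which inhibits EIF4A, read 339.6, 363 and 312 with anti-IgM, against 1041, 956 and 811 untreated (-1.34 ± 0.12, adjusted p = 9.55e-05), with 1 of its other 3 probes not called (-0.35), and the cyclin gene Ccng2 fell by 1.24. The 3 that rose were Slfn2 (1.22), Trib2 (0.77) and Cdkn1a (0.44), the p21 gene. Among G1 cyclins, kinases and E2F factors 5 of 14 were higher and 2 lower, with a median of 0.07. Ccnd2, the D-type cyclin of antigen-driven B cells, read 979, 1137 and 857 with anti-IgM, against 629.7, 535 and 395 untreated (0.88 ± 0.17, adjusted p = 0.00374), though its other 2 probes missed the threshold. Its relative Ccnd3 read 441, 406 and 397 with anti-IgM, against 851, 1002 and 934 untreated (-1.07 ± 0.10, adjusted p = 0.000139), but its other probe was at -0.11 (adjusted p = 0.470). E2f2 read 346, 394 and 367 with anti-IgM, against 1968, 1605 and 1569 untreated (-2.07 ± 0.12, adjusted p = 2.45e-05). The higher count of that list was 2 or 3 without any of the anti-IgM replicates or untreated replicate 2, and without untreated replicate 1 it had 7 higher and 4 lower and a median of 0.19. Without anti-IgM replicate 2 the median was 0.01.

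Mitotic genes were lower in 12 of 16 and higher in 0, with a median of -0.53. Nusap1, a spindle protein, read 529.9, 618 and 558 with anti-IgM, against 2233, 1331 and 1256 untreated (-1.38 ± 0.20, adjusted p = 0.000942), but its other 2 probes, at -0.25 and -0.11, missed the threshold. Kif23, a kinesin of cytokinesis, read 1021, 979.6 and 996 with anti-IgM, against 2449, 1692 and 1777 untreated (-0.93 ± 0.14, adjusted p = 0.00127), and of its other 3 probes 1 passed. Ndc80, of the kinetochore, read 101, 125 and 123 with anti-IgM, against 233, 226 and 217 untreated (-0.73 ± 0.10). Without anti-IgM replicate 1 the mitotic list had 8 lower calls. DNA replication genes were lower in 6 of 24 and higher in 0, with a median of -0.23. Pold1, the catalytic subunit of polymerase delta, read 483, 456 and 458 with anti-IgM, against 1073, 914 and 846 untreated (-0.94 ± 0.11, adjusted p = 0.000348), and the licensing factor gene Cdc6 read 84.7, 121 and 105 with anti-IgM, against 241, 187 and 151 untreated (-0.65 ± 0.15, adjusted p = 0.00987). Without untreated replicate 1 there were 10 lower and 1 higher, and without anti-IgM replicate 1 there were 4 lower.

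BCL2 family genes were called 3 higher and 4 lower of 14, with a median of -0.05. Bcl2, the survival gene, read 68.2, 88.0 and 88.1 with anti-IgM, against 236, 243 and 231 untreated (-1.13 ± 0.10, adjusted p = 0.000111), and 3 of its other 5 probes fell too. Mcl1, also prosurvival, read 2299, 1972 and 2109 with anti-IgM, against 3716, 3238 and 2959 untreated (-0.62 ± 0.12, adjusted p = 0.00361), and missed the threshold in the 12-array fit (adjusted p = 0.0946). Bmf, a BH3-only killer, read 38.2, 33.9 and 36.6 with anti-IgM, against 74.0, 71.5 and 72.7 untreated (-0.51 ± 0.09). The 3 higher, Bcl2l11 (0.45), Bcl2a1d (0.42) and Pmaip1 (0.39), were the BH3-only genes for BIM and NOXA and an A1 survival gene, whose copies are nearly identical. The higher count was 1 without anti-IgM replicate 1 or 3 or untreated replicate 2 or 3, and in the 12-array fit. The median was -0.17 without untreated replicate 1 and 0.03 without anti-IgM replicate 1. The call for Bad (-0.60) was lost when any 1 array other than untreated replicate 1 was left out, with adjusted p from 0.0853 to 0.163.

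Interferon response genes were lower in 13 of 23 and higher in 0, with a median of -0.37. The guanylate-binding GTPase gene Gbp2 read 221, 303 and 287 with anti-IgM, against 1355, 1341 and 1290.3 untreated, with tight groups far apart (-2.12 ± 0.12, adjusted p = 2.45e-05). Gbp3, its relative, read 158, 150.2 and 145 with anti-IgM, against 887, 660.1 and 635 untreated (-1.93 ± 0.13, adjusted p = 4.17e-05). Parp14 read 378, 421 and 403 with anti-IgM, against 1339, 1208 and 1064 untreated (-1.47 ± 0.11, adjusted p = 5.67e-05), and the ubiquitin ligase gene Trim25 fell by 1.10. Without untreated replicate 1 the list had 13 lower and 2 higher calls. The summed myeloid marker level, given above, overlapped between the groups, at 445 to 817 with anti-IgM and 807 to 2273 untreated. Its highest value was that of untreated replicate 1. Of the 5 myeloid markers tested, 2 were called lower and 0 higher. Adgre1 read 48.4, 37.9 and 45.9 with anti-IgM, against 348, 140 and 164 untreated. Mpeg1 read 89.1, 59.7 and 76.3 with anti-IgM, against 414, 202 and 241 untreated. What part myeloid RNA had in the interferon list was not tested. MHC class II presentation genes were 3 lower and 1 higher of 13, with a median of -0.22. Ciita, the master activator of class II genes, read 1330.2, 1391 and 1494 with anti-IgM, against 1926, 2753 and 2759 untreated (-0.78 ± 0.15, adjusted p = 0.00365). The 1 that was higher, the class II chain gene H2-Eb1, was bright at 33878, 35519 and 31125 with anti-IgM, against 16991, 27503 and 26815 untreated (0.53 ± 0.18, adjusted p = 0.0478), and its call was lost without any of the anti-IgM replicates. There were 7 lower calls in the list without untreated replicate 1 and 5 with the replicate number as a block. The median was -0.34 without untreated replicate 1 and -0.12 without untreated replicate 2.

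To see which of these changes differed between the E12 forms, the response with mutant E12 was set against that with wild-type E12. This used 1 fit of all 12 arrays, quantile-normalized together, in which each response is taken within its own form. The values in the sentences that follow come from that fit and run somewhat larger than those above. Of 9407 genes, 627 had responses that differed (6.67%), with the mutant response minus the wild-type response above 0 for 321 (3.41%) and below 0 for 306 (3.25%). In mutant E12 cells 18 genes (0.191%) were called for anti-IgM, by the same limma threshold. The 9407 genes are those detected on the wild-type E12 arrays, so genes detected in mutant E12 cells only are not counted. The count of 18 comes from a fit without pairing by replicate number, and no alternative was run for it. For wild-type E12, a 12-array fit over the probes detected on its own arrays called 1495 genes higher and 1617 lower. The 18 do not show that a response was absent, since large mutant changes missed the threshold. Among these were Ccl4 (2.57 ± 0.53, limma adjusted p = 0.0861) and Egr3 (1.33 ± 0.35, adjusted p = 0.206). The counts of differing responses depended on single arrays. The number above 0 ranged from 158 without wild-type anti-IgM replicate 1 to 377 without mutant untreated replicate 3, and the number below 0 from 158 to 351 without the same arrays. Without wild-type anti-IgM replicate 2 they were 172 and 163, without replicate 3 of that group 187 and 175, without mutant anti-IgM replicate 2 205 and 174, and without mutant untreated replicate 2 172 and 182. Without wild-type untreated replicate 2, 205 were above 0.

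Plau changed by 0.36 with mutant E12 and 2.83 with wild-type E12, a difference of -2.46 ± 0.22 (limma adjusted p = 0.000188). For Srm the responses were 0.55 and 2.65 (-2.10 ± 0.20, adjusted p = 0.000188), for Trmt61a 1.11 and 2.77 (-1.66 ± 0.16, adjusted p = 0.000189), and for Cd63 1.19 and 2.83 (-1.65 ± 0.27, adjusted p = 0.00517). These genes were named for the size of their change with wild-type E12, which favours a smaller response with mutant E12. Ccl4, with responses of 2.57 and 3.83, did not pass (-1.26 ± 0.75, adjusted p = 0.403), and passed without wild-type untreated replicate 1 (-2.18, adjusted p = 0.00474). The difference was also read for a pair of genes outside its naming rule. Myc changed by 0.08 with mutant E12 and 1.64 with wild-type E12 (-1.56 ± 0.31, adjusted p = 0.0119). Egr3, in contrast, had responses of 1.33 and 1.19 (0.14 ± 0.49, adjusted p = 0.926). On the side of the falls, Snx29 changed by -0.34 with mutant E12 and -2.75 with wild-type E12 (2.41 ± 0.47, adjusted p = 0.0111). For Arhgef18 the responses were -0.38 and -2.56 (2.18 ± 0.29, adjusted p = 0.0014), for Mxd4 -0.79 and -2.45 (1.66 ± 0.25, adjusted p = 0.00322), and for Ypel3 -0.86 and -2.35 (1.49 ± 0.30, adjusted p = 0.0129). Amigo2 did not pass (1.54 ± 0.55, adjusted p = 0.131).

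By list, ribosome assembly factors had the most differing responses. The counts stand beside 3.25% of all genes with a difference below 0 and 3.41% above 0. The lists were chosen with earlier results of these data known, and the difference subtracts the wild-type response. This favours differences below 0 in lists that rose with wild-type E12 and above 0 in lists that fell. The median response of the assembly factors was 0.47 with mutant E12 and 1.40 with wild-type E12. Their difference was below 0 for 24 of 43 and above 0 for 0. One-carbon and nucleotide synthesis genes had medians of 0.17 and 0.93, with 7 of 24 below 0. Immediate early factors had medians of 0.08 and 0.61 (5 of 19 below 0), and glycolysis genes 0.04 and 0.59 (5 of 12 below 0). Among lists that fell, quiescence genes had medians of -0.13 with mutant E12 and -0.43 with wild-type E12 (8 of 24 above 0), B lineage factors -0.05 and -0.29 (7 of 26 above 0, 1 below 0), interferon response genes -0.08 and -0.39 (6 of 23 above 0), and antigen receptor genes 0.04 and -0.42 (5 of 28 above 0). Cholesterol synthesis genes had medians of 0.30 and 0.25, with 0 of 16 differing.

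**Figure D5:**
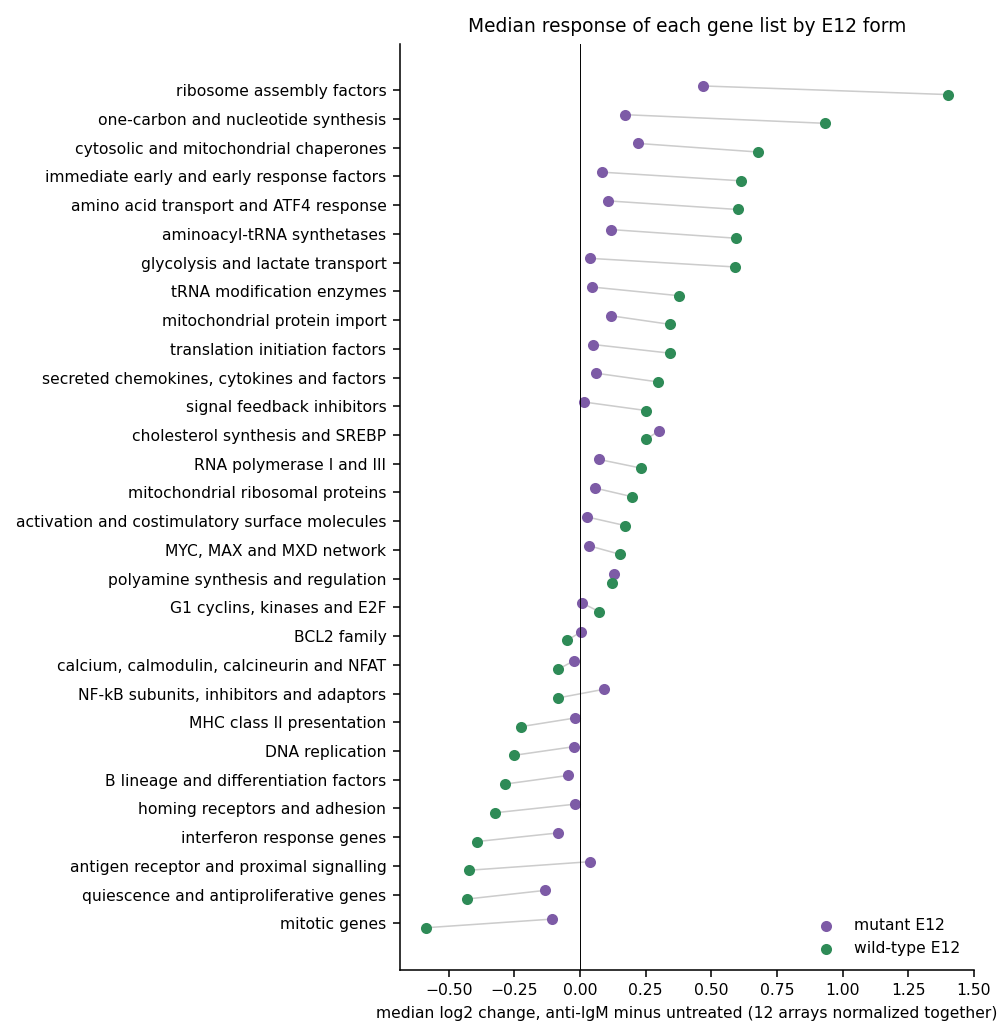
Median log2 response to anti-IgM (anti-IgM minus untreated, horizontal axis) of each of 30 gene lists in mutant E12 cells (purple, upper point) and wild-type E12 cells (green, lower point), from 12 arrays normalized together. The widest gap is that of ribosome assembly factors (0.47 with mutant E12, 1.40 with wild-type E12).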

How the data were processed

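RNA of sorted B cells was measured as biotin-labelled cRNA on Illumina bead arrays. The authors deposited background-subtracted, normalized intensity values on a linear scale, as read from the values; the sources used here name no software, method or probe position. The 6 wild-type E12 arrays share 1 median and the 6 mutant E12 arrays another, so the forms were taken as normalized apart. A table before normalization has 12 columns that match no sample label and hold no detection p-value, so it was not used, and neqc could not be run on it.

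The detection limit is the level a normal background, with the spread of each array's values below 0, exceeds with p 0.01. Of 45281 probes, 34885 had 1 gene symbol, 18 several and 10378 none, from GEO's platform annotation updated through Entrez identifiers. Tests used limma 3.58.1 in R 4.3.3 (lmFit and eBayes, two-sided, 4 residual and 5.03 prior degrees of freedom) with Benjamini-Hochberg adjustment. The fit was tested on simulated data. The members and lists were chosen with earlier results of these data known. Named were Tcf3, the 15 largest rises and falls with groups not overlapping, up to 4 members per list, a short set given by name, and the 5 highest bounds each way. For the difference between E12 forms, the 5 largest rises and falls were named. Cd79a has no named probe here.

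Titles number the replicates 1 to 3 in each group. Deviations from the group means correlated at 0.29, 0.20 and 0.15 between same-numbered wild-type E12 arrays, above 0 but low. No stated design pairs the samples, and the main tests used no pairing. A block for the replicate number is an alternative, as are other offsets, filters, normalizations, weights and the omission of each array.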

Additional observations from a re-analysis of the deposited data

Results flagged for a closer look

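The anti-IgM responses differed between mutant and wild-type E12 for 627 genes by limma's test of the difference itself (6.67% of 9407). Among the 5 largest rises and 5 largest falls of the wild-type response, 8 genes were marked for this reason. The mutant response minus the wild-type response was -2.46 for Plau, -2.10 for Srm, -1.66 for Trmt61a and -1.65 for Cd63, and 2.41 for Snx29, 2.18 for Arhgef18, 1.66 for Mxd4 and 1.49 for Ypel3, in log2 units. These genes were named for the size of their change with wild-type E12, and the difference subtracts that same change, which favours the opposite sign. Form and the median of the deposited arrays go together, and they cannot be told apart for levels. The responses are taken within each form, but the form still goes together with its set of arrays. What else differed between the 2 sets cannot be told apart from the form of E12 in the responses either.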

How the results depend on the processing

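Of 151 named genes tested, 132 kept their direction and their side of the threshold under every alternative, and 0 reversed. With an offset of 16 in place of 50, 450 genes were higher and 433 lower by 1 log2 unit or more, since the offset itself sets how far dim genes can change. Array weights gave 4714 probes lower, against 3065 without. Leaving out 1 array gave 2032 to 3882 probes higher and 2006 to 3969 lower, 1096 to 2058 genes higher and 1269 to 2362 lower, and by at least 1 log2 unit 262 to 306 higher and 214 to 276 lower. With the replicate block, 1807 genes were higher and 2033 lower, and among named genes it changed the calls of Cd69 and Id3 only. The difference between E12 forms was more dependent. The number of genes above 0 and below 0 was 163 and 143 with deposited values, 177 and 132 with an offset of 16, 690 and 605 with the replicate block within each form, 1029 and 852 with array weights, and 158 to 377 and 158 to 351 without 1 array. Between same-numbered mutant arrays the deviations correlated at 0.58, -0.02 and 0.52, so pairing is not shown there for each replicate number. The difference lost its call for Ypel3 with deposited values (1.27, adjusted p = 0.0536) and for Cd63 with an offset of 16 (-1.10, adjusted p = 0.120). It gained the threshold for Ccl4 and Amigo2 with the block (adjusted p = 0.0418 and 0.0101). The cause of these shifts was not tested. The 2 lower calls among initiation factor, one-carbon and amino acid transport genes became 1 without any of the anti-IgM replicates. Dim genes were called least often, and whether signal over background or the offset sets this was not tested.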
